A study of Arabidopsis thaliana with 2 samples.

Results

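Most mature messenger RNAs end downstream of the stop codon, where the nascent transcript is cleaved and a poly(A) tail is added. When cleavage and polyadenylation occur further upstream, inside an intron or inside the coding sequence, the tail is attached to a transcript that has lost its annotated stop codon and the coding exons after it. In an intron, splicing and cleavage act on the same stretch of RNA: if the intron is spliced first, the site is removed, and if the site is cut first, the 3′ splice site is never made. In Arabidopsis this choice is best known from the flowering-time gene FCA, whose product promotes cleavage in an intron of its own transcript, and from the cleavage factor gene CPSF30, which yields a short and a long protein from an intronic and a distal site.

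Such premature sites were looked for in 2 PacBio Iso-seq libraries, which are biological replicates of 1 condition: inflorescences with unopened floral buds of wild-type Arabidopsis thaliana Col-0, the reference accession, grown in long days without treatment, from 10 μg of total RNA each. The 2 libraries held 267716 and 255215 aligned reads, and 133284 and 129567 nuclear reads carried both a cap label, an untemplated G at the 5′ end that marks a capped start, and a 3′ label, a poly(A) tail that the genome sequence next to the end does not encode. A read with both labels is called a labelled read here. All 5 floral organ identity genes checked were detected, from AP3 (22 and 15 reads in replicates 1 and 2) to SEP3 (81 and 79 reads), and the root cap genes BRN1 and SMB had 0 reads.

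The 3′ ends of labelled reads within 10 nt of each other were merged into sites. A site was kept if it had at least 3 labelled reads over both replicates and lay in an intron or in the coding sequence, upstream of every stop codon annotated for a nuclear protein-coding gene on the same strand in the RefSeq annotation of TAIR10.1. Of 16091 sites in all, 35 sites in 30 genes met this rule, with 216 reads, 108 in each replicate. For comparison, 10298 sites lay within 100 nt of an annotated 3′ end of their own gene. The sites were chosen by the read counts of both replicates, so their counts and shares are given as a description. Only their sequences, and the split of reads between replicates, were tested. The sites held 3 to 29 reads with a median of 5, and 11 of them held exactly 3 reads, the lowest number the rule admits. Just below it, 46 further sites upstream of every stop codon held 2 reads and 675 held a single read.

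The 35 sites are of 2 kinds. At 14 sites in 11 genes, most reads overlapped the exons of another gene on the same strand more than those of the gene that holds the site, and they are described last. At the other 21 sites, in 19 genes, the reads belonged to the gene itself. These 21 sites held 87 reads, 36 in replicate 1 and 51 in replicate 2, at 3 to 7 reads a site, and all of them lay more than 100 nt from any annotated 3′ end on their strand. From replicate 1 alone 3 such sites were found and from replicate 2 alone 10. With ends within 5 nt merged there were 13 and within 25 nt 32. Among protein-coding genes with at least 3 labelled reads, 19 of 12359 (0.154%) held such a site, and among genes with at least 10 labelled reads 8 of 5639 (0.142%) did. By place, 12 sites were in introns, 4 were in coding exons, and 5 were mixed, which means that they lay in an intron of at least 1 coding transcript of the gene and in an exon of another transcript.

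The map of the 19 genes shows that the sites fell in early, middle and late introns. AT1G05550, CPSF30 and FCA ended in intron 1 of 5, intron 2 of 6 and intron 3 of 20, whereas SCPL13 and AT5G35910 ended in intron 10 of 13 and intron 11 of 13. The 4 sites in coding exons lay in the last or the next-to-last exon.

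**Figure D1:**
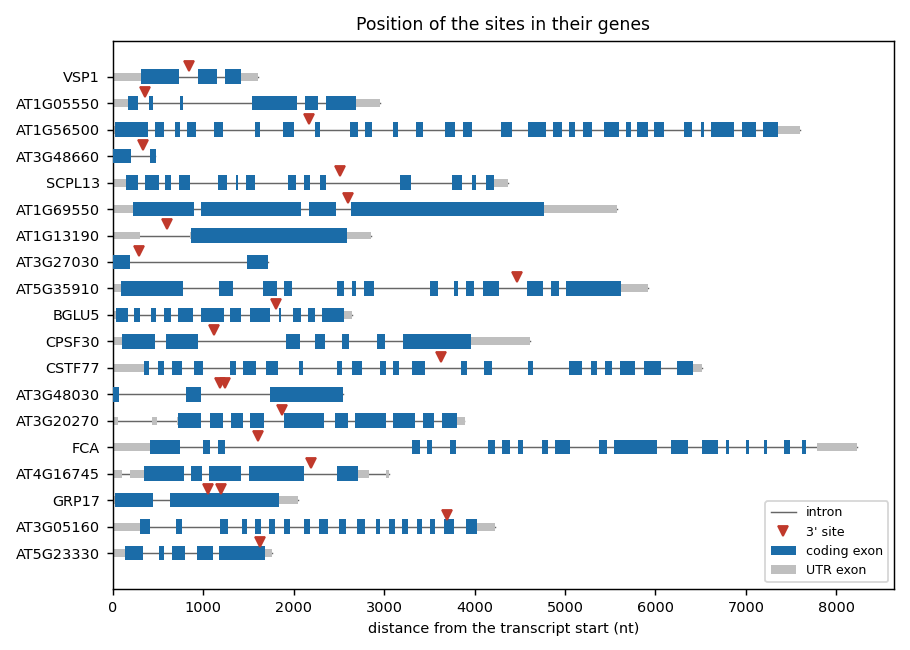
Position of the 21 sites (red triangles) in the 19 genes, drawn on the longest coding transcript that holds the site, with the distance from the transcript start in nt on the x axis. Blue boxes are coding exons, grey boxes are exons outside the coding sequence and thin lines are introns. The FCA site lies in an intron of 2075 nt, the longest host intron, and the AT5G23330 site lies 49 nt upstream of the stop codon.

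The sequences on which the results turn are the last 30 bases of the reads at 6 sites, read 5′ to 3′ from the TAIR10.1 genome and ending at the most-used 3′ end. They are shown because the hexamer AATAAA is the best-known polyadenylation signal and because sites with and without it stand side by side in this set. Capitals mark AATAAA, or a hexamer that differs from it by 1 base, where it starts 10 to 29 nt upstream of the end. CPSF30 also has such a hexamer, AATGAA, which starts 34 nt upstream, before the bases printed.
CSTF77 (chr1:6112990, minus strand): cttttgtgatAATAAAgtcaaaatgatttg
SCPL13 (chr2:9781389, plus strand): attccacagttaatacgaAATAACatttgg
FCA (chr4:9213215, minus strand): gctgttgcctttatagtgggaattggttat
CPSF30 (chr1:10774303, minus strand): actttatatatacagatatattttcaactt
VSP1 (chr5:8508356, minus strand): tcatatatggaaagacacgtttcatttgac
AT1G05550 (chr1:1643559, minus strand): ttttctaatttaatatctattatgctaagt

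The first genes in which premature sites were examined are those of the cleavage and polyadenylation machinery and those known for internal sites. FCA, an RNA-binding protein that promotes flowering, had 9 labelled reads. At the FCA site in intron 3, 1 read ended in replicate 1 and 3 reads ended in replicate 2, which is 44.4% of the gene's labelled reads (95% Wilson interval 18.9 to 73.3%). Wilson intervals here and below cover counting error only. A further 3 labelled reads, all in replicate 1, ended elsewhere in the same intron, so that the ends ran from 322 to 416 nt downstream of the 5′ splice site, and 7 of 9 labelled reads ended upstream of every stop codon. The other 2 reads, both in replicate 2, ended past the stop codon. Over reads with any label, 4 spliced intron 3 as annotated, all in replicate 2. The site is mixed because intron 3 is part of an exon in 1 of the 4 coding transcripts in the annotation.

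CPSF30 encodes a zinc finger subunit of the cleavage and polyadenylation specificity factor. Of its 8 labelled reads, 2 in replicate 1 and 1 in replicate 2 ended in intron 2, 183 nt after the 5′ splice site, a share of 37.5% (13.7 to 69.4%). Another labelled read of replicate 2 ended 164 nt after the same splice site. Over reads with any label, 8 spliced this intron of 970 nt and 0 retained it whole. Both FCA and CPSF30 thus had spliced and prematurely ended transcripts in the same tissue.

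CSTF77 encodes a subunit of the cleavage stimulation factor, which binds downstream of the cut. In Drosophila the gene for the homologous protein is known to end some of its own transcripts early. In CSTF77, 1 labelled read of replicate 1 and 2 of replicate 2 ended at the same base of intron 13 of 21, 178 nt after the 5′ splice site, out of 7 labelled reads (42.9%, 15.8 to 75.0%). An uncapped read with a 3′ label ended there in replicate 1, and 5 reads spliced the intron. CSTF77 was the only gene among the 19 with an exact AATAAA, 19 nt upstream of the end.

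These 3 genes were the ones with a site among 2 lists of genes. Of 6 genes known for internal polyadenylation, FCA and CPSF30 held a site. IBM1, a histone demethylase gene with a long heterochromatic intron, fell just short of the minimum: 2 of its 3 labelled reads, 1 in each replicate, ended 140 and 141 nt into intron 7 of 16. FPA, another gene on this list, had 3 labelled reads, and none ended early. AT1G58602, the RPP7 resistance gene, had 0 labelled reads and AT3G05410 had 1, so that premature ends were not detectable in them at this depth. Of 20 genes of the cleavage and polyadenylation machinery, 11 had at least 3 labelled reads, 2 held a site (CPSF30 and CSTF77) and 5 had at least 1 labelled read that ended upstream of every stop codon. Over all protein-coding genes with at least 3 labelled reads, 417 of 12359 (3.37%) had at least 1 such read. FIP1[V], a homologue of the FIP1 subunit, had 3 such reads among 5, at 151, 156 and 181 nt into intron 1 of 8. AT4G25550, a gene on the machinery list, had 2 among 17, both in intron 2, and CPSF73-I, the endonuclease subunit, had 1 among 4, in the coding sequence. The other genes on the machinery list had none.

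**Figure D2:**
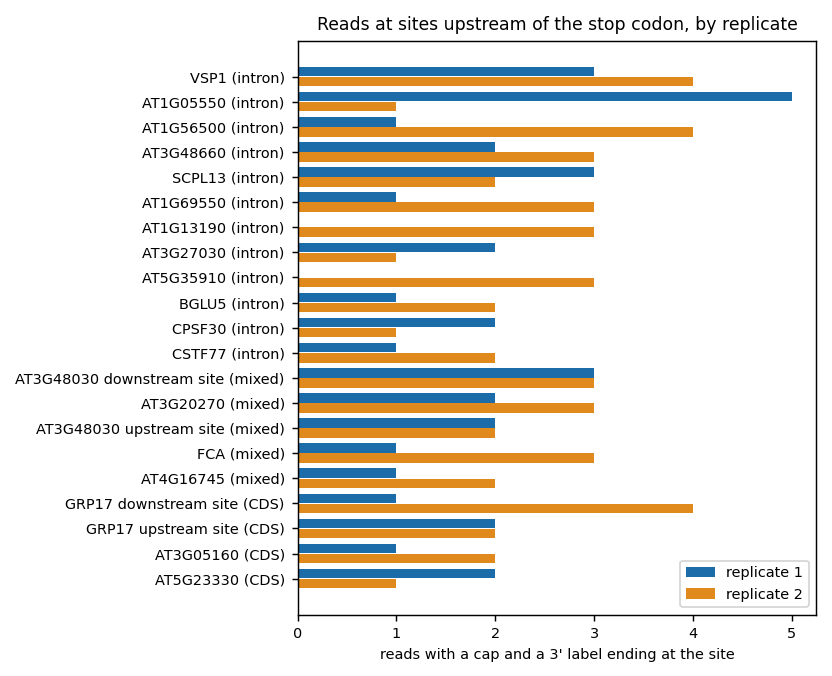
Labelled reads (x axis, number of reads) that ended at each of the 21 sites in replicate 1 (blue) and replicate 2 (orange), with the place of the site in parentheses. Of the 21 sites, 19 have a bar in both replicates, and AT1G13190 and AT5G35910 have reads in replicate 2 only.

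Among the other intron sites, the gene with the most reads was VSP1, which encodes a vegetative storage protein. In VSP1, 3 labelled reads of replicate 1 and 4 of replicate 2 ended in intron 1 of 2, but the gene had 1096 labelled reads, so that the share was 0.483% in replicate 1 and 0.842% in replicate 2. Over reads with any label, 10 ended at this site, 12 retained the whole intron and 1587 spliced it. All 7 labelled reads started 274 to 278 nt downstream of the annotated gene start. The last 30 bases of the VSP1 reads, and those of each of the other 34 sites, occurred once in the nuclear genome.

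AT1G05550 encodes a hypothetical protein with a domain of unknown function, DUF295. Its site in intron 1 held 5 labelled reads in replicate 1 and 1 in replicate 2, which is 54.5% of 11 labelled reads (28.0 to 78.7%). A further 9 uncapped reads with a 3′ label ended at the same place, 3 in replicate 1 and 6 in replicate 2. No read spliced this intron, and 7 reads of any label retained it whole. In the annotation, the intron belongs to 1 of the 4 coding transcripts, and the other 3 do not span the site.

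AT1G56500 encodes a protein of the haloacid dehalogenase-like hydrolase family. Its site in intron 7 of 27 held 1 labelled read in replicate 1 and 4 in replicate 2, out of 6 (83.3%, 43.7 to 97.0%). All 6 labelled reads of the gene ended upstream of every stop codon, and 1 read of any label spliced the intron. Each of the 5 reads at the site had 6 gaps in its alignment, and in 4 of the reads all gaps were annotated introns. In 1 read a gap was not labelled as an intron. AT1G69550, a gene for a disease resistance protein of the TIR-NBS-LRR class, a family of intracellular immune receptors, had 4 labelled reads, 1 in replicate 1 and 3 in replicate 2. All 4 ended in intron 3 of 3, and no read of any label spliced it. With 4 reads the interval of this share runs from 51.0 to 100%, so that transcripts reaching the annotated end could be common and still be missed.

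SCPL13, a serine carboxypeptidase-like gene, had several reads of both outcomes. At its site in intron 10 of 13, 3 labelled reads ended in replicate 1 and 2 in replicate 2, out of 15 (33.3%, 15.2 to 58.3%). Over reads with any label, 21 spliced the intron, 9 in replicate 1 and 12 in replicate 2, and 0 retained it whole. The host intron is 810 nt long, against a median of 102 nt for the other introns of the transcript, and the site lies 152 nt after its 5′ splice site.

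AT3G48660, a putative transmembrane protein gene with a single intron, had 2 and 3 labelled reads, and all 5 ended in that intron, 135 nt upstream of the nearest annotated 3′ end. AT3G27030, an uncharacterized protein gene, had 4 labelled reads, of which 2 in replicate 1 and 1 in replicate 2 ended at the site, 98 nt into an intron of 1289 nt. In both genes no read spliced the intron and no labelled read ended past the stop codon. Their annotated coding transcripts hold no untranslated region, and the reads at both sites started upstream of the annotated gene start. No labelled read thus followed the annotated transcript to its end. AT5G35910, which encodes a protein with a ribonuclease H fold and an HRDC domain, had 0 reads at its site in replicate 1 and 3 in replicate 2, out of 9, and 9 reads of any label spliced the host intron. AT1G13190, a gene for an RNA-binding protein of the RRM family, also had 0 and 3 reads, out of 14. Its site lies in the 5′ untranslated region, in the only intron, and the start codon is downstream. BGLU5, a beta glucosidase gene, had 1 and 2 reads out of 11 in intron 8 of 11, a short intron of 99 nt that 7 reads of any label retained whole and 1 read spliced.

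The remaining mixed sites show why the annotation matters for what is called premature. In AT3G48030, annotated as a hypoxia-responsive gene with a RING-type zinc finger, all 14 labelled reads ended upstream of every stop codon, 8 in replicate 1 and 6 in replicate 2. They included 3 and 3 reads at the downstream site and 2 and 2 reads at the upstream site, both in intron 2 of 2, and no read of any label spliced this intron. The other coding transcript of the gene has no such intron, and there the sites lie in an exon before the coding sequence. In AT3G20270, a lipid-binding serum glycoprotein family gene, 2 and 3 reads of 6 ended in intron 6 of 11, which is intronic in 2 of 6 coding transcripts and exonic in the other 4. In AT4G16745, an exostosin family gene, 1 and 2 reads of 11 ended 15 nt upstream of the stop codon of the shorter coding transcript, within an intron of the longer one. Its other 8 labelled reads ended past that stop codon.

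**Figure D3:**
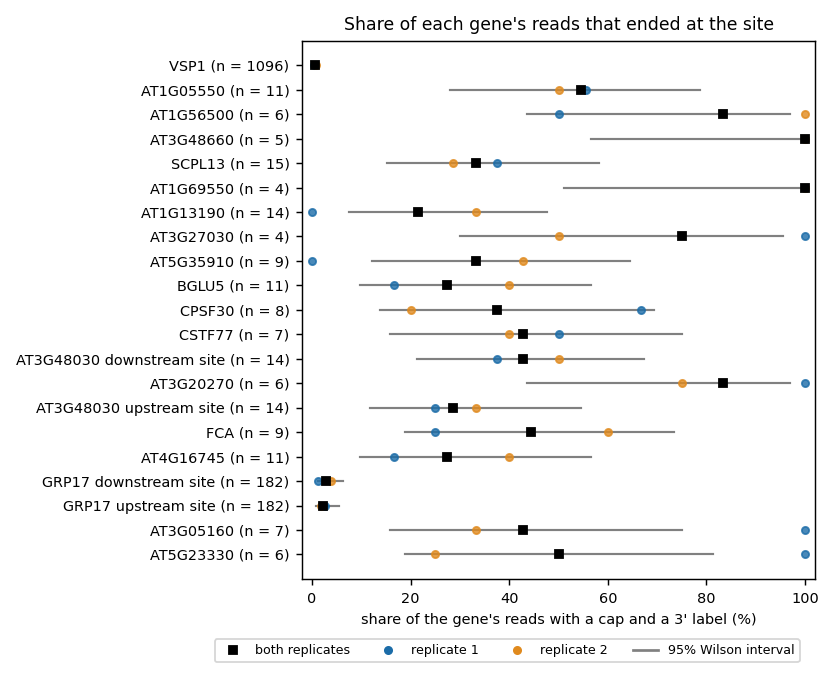
Share of the gene's labelled reads that ended at each site (x axis, percent), for both replicates together (black squares) with the 95% Wilson interval (grey lines), and for each replicate (blue and orange points). The number of labelled reads of the gene is given as n. Shares run from 0.639% in VSP1 to 100% in AT1G69550 and AT3G48660, and intervals are wide wherever n is under 20.

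Over the 21 sites the share of the gene's labelled reads had a median of 42.9%, and 7 sites held at least 50% of them. Most of these genes had few reads: 4 was the lowest number of labelled reads, and a gene with few reads can hold a site of 3 reads only if the share is high. In the 8 genes with at least 10 labelled reads the median share, summed over the sites of a gene, was 27.3%, with medians of 16.7% in replicate 1 and 36.7% in replicate 2 at the same sites. With sites called anew in a single replicate, the minimum of 10 labelled reads left VSP1 alone in replicate 1, at 0.483%. In replicate 2 it left only VSP1 and GRP17, with a median of 2.33%. Over both replicates in the 8 genes, with all 3′-labelled reads as the denominator, the median was 15.8%, and with all reads 15.2%. The numerator stayed the reads with both labels, so a larger denominator could only lower each share. In the 2 genes with at least 20 labelled reads, GRP17 and VSP1, the median was 2.79%.

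Of the 4 sites in coding exons, 2 were followed by A-rich sequence. GRP17, an abundant glycine-rich oleosin-like protein of the pollen coat, held both, in exon 2 of 2, with 182 labelled reads in the gene. At the GRP17 upstream site, 2 reads ended in each replicate, and at the GRP17 downstream site 1 and 4 reads ended. The genome has 14 A in the 20 bases after each GRP17 end, the most among the 35 sites, and these 2 were the only sites with 12 or more. The 20 bases that follow are printed because of their A runs, where oligo(dT) can prime and where the 3′ label is withheld from most reads.
GRP17 upstream site (chr5:2383461, minus strand), after the end: aaatccaaaagtaaaaaaag
GRP17 downstream site (chr5:2383327, minus strand), after the end: caaaagtaaaaaaagtaaac

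Both ends lie in copies of the same repeat: the 20 bases centred on each end occur 2 times in GRP17. Capped reads that ended at the same places without a 3′ label were far more numerous, 39 and 32 reads in replicates 1 and 2 at the upstream site and 28 and 39.5 reads at the downstream site. Fractional counts arise where a read was split between alignments. Of all capped GRP17 reads without a 3′ label, 75.2% in replicate 1 and 67.3% in replicate 2 ended before the stop codon, against 5.19% and 6.67% of those with the label. The part of internal priming in the GRP17 sites was not tested.

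AT3G05160, a gene for a transporter of the major facilitator superfamily, had 1 and 2 reads of 7 at its site, in exon 17 of 18, with 5 A in the 20 bases that follow. AT5G23330, a nucleotidylyl transferase gene, had 2 and 1 reads of 6 at its site in the last exon, with 8 A. That site is 126 nt upstream of the annotated 3′ end. Sites with fewer reads were more often in coding exons: by description, 43.5% of the 602 single-read sites with reads of the gene itself were in coding exons, 26.7% of the 30 sites with 2 reads, and 4 of the 21 sites with 3 or more.

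What happened to each host intron is compared with the spliced and retained reads below. Among the 17 sites in introns, mixed sites included, the host intron was spliced as annotated by at least 1 read in VSP1, AT1G56500, SCPL13, AT1G13190, AT5G35910, BGLU5, CPSF30, CSTF77 and FCA, and by no read in the other genes.

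**Figure D4:**
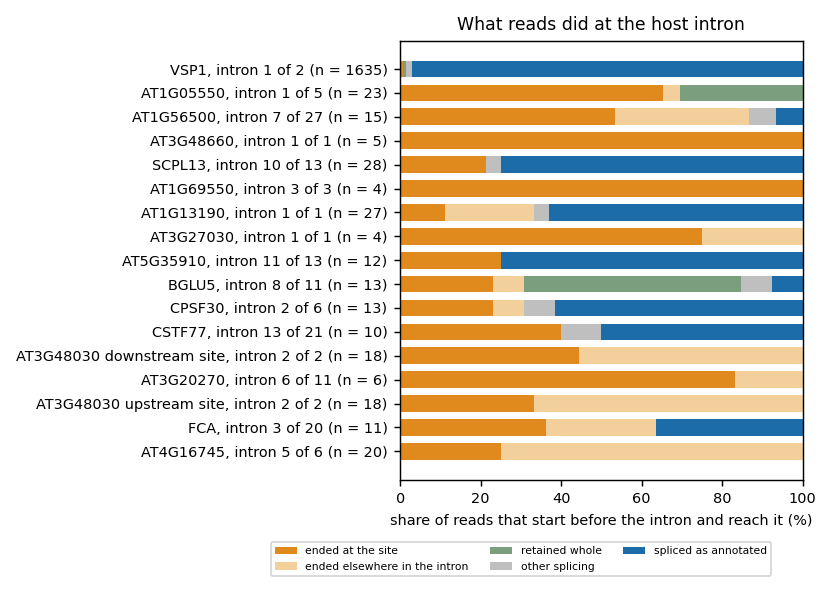
Fate of reads of any label that start before the host intron and reach it (x axis, percent of these reads, with n in parentheses), for the 17 sites in introns or mixed places. Orange is the share that ended at the site, light orange the share that ended elsewhere in the intron, green the share that retained it whole, grey other splicing and blue splicing as annotated. VSP1 is almost all blue with 1587 spliced reads, and AT1G69550 and AT3G48660 are all orange with 4 and 5 reads. In AT4G16745 and AT3G48030, an exon of the other coding transcript covers the site. In AT4G16745 the stop codon of that transcript lies within the intron, so that an end elsewhere in the intron is not always premature. In AT3G48030 the whole intron lies upstream of every stop codon.

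The 17 sites lay in 16 host introns, 67 to 372 nt downstream of the 5′ splice site, with a median of 165 nt. The host introns had a median length of 335.5 nt, with a range of 99 to 2075 nt, against a median of 101 nt for the other 127 introns of the same transcripts. Of the 13 host introns in transcripts with several introns, 8 were the longest of their transcript and 2 were the first. An intron picked evenly from each of these transcripts would be the longest, or the first, in 18.0% of cases on average. A long intron has more positions at which a read can end, so no test was made. The first 5 bases of an intron are read by the U1 small nuclear RNA. They were GTAAG in 2 of 16 host introns (12.5%, 3.50 to 36.0%) and in 24 of the other 127 introns (18.9%). Over all 35 sites the numbers were 3 of 25 and 35 of 207, and a 2-sided Fisher's exact test gave p = 0.775.

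The reading frame was followed from the annotated start codon along the annotated exons into the host intron. An in-frame stop codon appeared in the intron before the end at 14 of the 17 sites (Wilson interval 59.0 to 93.8%). Both AT3G48030 sites are counted, although they share an intron and a reading frame. Other introns were not followed in this way, so the count is a description and not a trait particular to these sites. In these 14, the annotated codons upstream of the intron made up 9.35 to 76.4% of the coding sequence, with a median of 41.7%, and the intron added 1 to 99 codons. FCA kept 161 of 747 codons and gained 99, CPSF30 kept 237 of 631 and gained 13, CSTF77 kept 385 of 734 and gained 20, and AT3G48660 kept 68 of 89 and gained 1. In AT1G05550, 36 of 385 codons were followed by 4. These proteins were computed from the genome and were not measured. The exceptions were AT4G16745, where no stop codon preceded the end, AT1G13190, whose start codon is downstream, and BGLU5, whose annotated coding sequence holds an in-frame stop codon in the genome before the host intron. Followed along the exons of the reads themselves, most reads of 14 of the 17 sites met a stop codon, but not always the same one. In 1 read each of AT1G56500, FCA and AT5G23330, a gap not labelled as an intron was skipped as if spliced, which can shift the frame. In SCPL13, whose annotated path keeps 310 of 433 codons, the reads met a stop codon after a median of 98 codons, with a range of 94 to 344. In the coding exons, the GRP17 reads kept 283 of 543 codons at the upstream site and 327 at the downstream site, and no stop codon preceded either end. Along their own exons, all 3 AT3G05160 reads met a stop codon, after a median of 194 codons where 458 are annotated, and 2 of the 3 AT5G23330 reads did.

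The sequence upstream of the end was not used to choose the sites. The counts by place here are over all 35 sites, those with a neighbour's reads included. AATAAA started 10 to 35 nt upstream of the end at 2 of 21 intron sites, taking the most-read site of each gene (9.52%, 2.65 to 28.9%), at 0 of 5 sites in coding exons (0%, up to 43.4%) and at 0 of 4 mixed sites. Of the 2 intron sites with AATAAA, CSTF77 held its own reads and TPR10 those of a neighbour. Of 7190 sites near annotated 3′ ends, 950 had it (13.2%). A site with a neighbour's reads near that neighbour's annotated end could count in both groups. In the comparisons of the intron sites with the annotated ends and of the coding-exon sites with both, all 3 two-sided Fisher's exact tests gave p = 1, also after Benjamini-Hochberg adjustment. A lower share could not have been called with so few sites, since 0 of 21 would have given p = 0.0999 and 0 of 5 p = 1 by the same exact test. AATAAA or a hexamer with 1 base changed was present at 10 of 21 intron sites (47.6%) and at 52.1% of annotated ends. Among the 19 genes with reads of their own, CSTF77 had AATAAA and 7 had either form (36.8%).

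**Figure D5:**
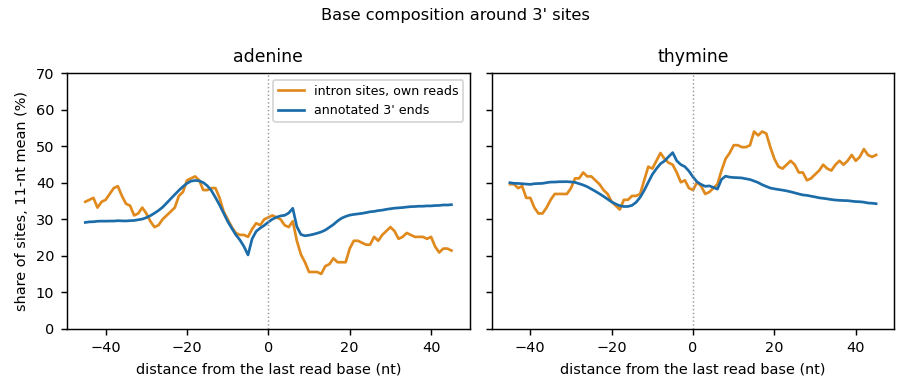
Share of adenine (left) and thymine (right) around the last read base at position 0, as a mean over 11 nt (y axis, percent of sites; x axis, distance in nt). Orange is the 17 intron and mixed sites with reads of the gene itself and blue is the 10298 sites near annotated 3′ ends. Both have an adenine peak about 20 nt upstream, and the orange line has another of similar height further upstream, where the blue line is flat. Downstream the orange line lies below the blue for adenine and above it for thymine.

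Upstream of the end, the base composition of the 17 intron and mixed sites was close to that of annotated 3′ ends: thymine made up 40.9% ± 0.666 (SD, n = 2 replicates) of the 30 bases, against 40.3% ± 0.0123 at annotated ends. Downstream the values lay further apart. Adenine made up 23.1% ± 0.610 of the next 20 bases, against 31.2% ± 0.0226 at annotated ends, and thymine made up 47.5% ± 1.11 of the bases 6 to 25 nt downstream, against 39.9% ± 0.0620. Introns of Arabidopsis are rich in thymine, and the composition of introns away from these sites was not used here. The replicates share most of the sites, so that the SD says little about the spread between sites, and no test was made. The 3′ label is withheld where the genome is rich in A, which bounds the adenine share from above. The 4 sites in coding exons had a mean of 51.2% adenine downstream and 22.5% thymine upstream, and the adenine was carried by the 2 GRP17 sites, with 14 A of 20, against 5 and 8 at the other 2.

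Both replicates held reads at 19 of the 21 sites, and at 5485 of 6722 sites near annotated 3′ ends with 3 to 7 reads (81.6%). The use of each site relative to the other sites of its gene was compared between replicates by Fisher's exact test over all 10311 sites of genes with at least 2 sites. After Benjamini-Hochberg adjustment 0 sites differed (0%), and 214 (2.08%) had an unadjusted p under 0.05. Of the 35 premature sites, 18 were in this test and 0 were among the 214. At 6 of these 18 the reads were too few for any split to reach an unadjusted p of 0.05, so the count says little about whether the replicates differ. AT1G13190 had 0 of 4 reads in replicate 1 and 3 of 7 in replicate 2. The test compares 2 libraries of the same condition. The share of all labelled reads of protein-coding genes that ended upstream of every stop codon, at any depth, was 0.301% in replicate 1 and 0.266% in replicate 2, a mean of 0.284% ± 0.0245 (SD, n = 2). Introns took 0.142% ± 0.0185, coding exons 0.112% ± 0.00382 and mixed places 0.0303% ± 0.00213.

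Genes were counted in 6 groups by words in their product names. The product names of AT3G05160, a transporter gene, and FCA, an RNA-binding protein gene, lack these words, so the groups leave them out. Among genes with at least 3 labelled reads, 1 of 19 disease resistance genes and 1 of 184 genes for RNA-binding proteins or splicing factors held a site with its own reads, and 0 of 594 kinase, 0 of 190 transcription factor, 0 of 252 transporter and 0 of 294 ribosomal protein genes did. Over all genes the share was 0.154%. Counts of 0 or 1 are too few to rank the groups, and no test was made. Premature reads at any depth were seen in 3 of 19 disease resistance genes (15.8%), in 3.20% of kinase, 3.16% of transcription factor, 3.26% of RNA-binding or splicing factor, 1.59% of transporter and 1.02% of ribosomal protein genes, against 3.37% of all genes. These shares are a description of groups of unequal depth.

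The last 14 sites met the rule because 2 genes on the same strand overlap or adjoin. They held 129 reads, 72 in replicate 1 and 57 in replicate 2, and 11 of them lay within 100 nt of an annotated 3′ end. The highest counts of the whole set were of this kind: 18 and 11 reads at the upstream site and 8 and 7 reads at the downstream site in AT1G04945, which belonged to Tic20-I, a component of the chloroplast protein import machinery. Together they took 63.0 and 32.6% of the 46 labelled reads of Tic20-I, while AT1G04945 itself had 2 labelled reads. In AT1G02040, 8 and 5 reads in a coding exon belonged to LAP6, a polyketide synthase of the pollen wall, and ended 81 nt past its annotated end. In TPR10, 7 and 5 reads overlapped AT3G04700 most, of whose 13 labelled reads they were 92.3%. All 12 had 1 intron, which is also annotated in a transcript of TPR10 that starts where AT3G04700 does, so that these reads cannot be ascribed wholly to the neighbour. The same holds for the 3 reads at each AT5G27410 site, whose introns were all annotated in AT5G27410. AT4G31030 held 9 and 4 reads of AT4G31040, and AT4G02140 held 5 and 4 reads at one site and 2 and 3 at another of MOS6, an importin alpha. AT2G28105 held 5 and 3 reads of the fucosidase gene FUC1, and DCL2, which encodes a Dicer-like enzyme of small RNA biogenesis, held 0 and 5 reads of AT3G03305. AT1G04625 held 4 and 1 reads of MEE4, in a coding exon. The other sites of this kind, in AT4G38290, VEL2 and AT5G27410, held 3 to 5 reads. These reads overlapped the exons of the neighbour more than those of the gene that holds the site.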

How the data were processed

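The authors made full-length non-chimeric reads with the Iso-seq3 tools, which required a poly(A) tail, aligned them to TAIR10 with minimap2 (version not given in the sources used here) and wrote end-labelled structures with Bookend. As deposited by the authors, each structure has an expected count, an estimated count of its reads that splits reads with several alignments and is not normalized. Each replicate has its own list.

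Sites were called from these counts in Python 3.11.15 with SciPy 1.17.1, and each read was assigned to the gene with the most exonic overlap on its strand. The genome and the annotation were those of TAIR10.1, whose nuclear coordinates are those of TAIR10, and 98.7% of the reads' introns had GT and AG at their borders. Counts were rounded to whole numbers for Fisher's exact test between replicates. Site calling and that test were tested on simulated data. There is 1 condition with 2 biological replicates, and no comparison between conditions was possible. Genes were named by these rules: in introns and in coding exons, the 10 sites with the most reads and the 10 with the largest share, and each listed gene with a site. Other genes were named after their values were seen. The members, lists and tests were chosen with earlier results of these data known. Mitochondrial and plastid reads were left out. The alternatives changed the merging distance, the minimum number of reads, the labels required, the neighbours kept and the replicates used. No test of depth was made beyond Wilson intervals.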

Additional observations from a re-analysis of the deposited data

Results flagged for a closer look

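Reads that the rule did not use, counted within 10 nt of a site, exceeded the 3 reads that a count of 0 allows at 13 sites. At the GRP17 upstream site, 71 capped reads without a 3′ label and 27 reads with neither label ended. At the GRP17 downstream site, 67.5 capped reads without a 3′ label, 51.5 reads with neither label and 4 reads with a 3′ label but no cap ended. At the AT1G05550 site, 9 reads with a 3′ label but no cap ended, against 6 with both labels. Reads with a 3′ label but no cap were also above 3 at 10 of the 14 sites with reads of a neighbour. There were 8 at the AT1G04945 upstream site and 12 at the downstream site, whose windows overlap, so that a read may count at both. There were 6 at AT4G31030, 6 at TPR10, 6 at DCL2, 5 at AT1G02040, and 4 each at AT2G28105, AT1G04625, the AT4G02140 upstream site and the AT5G27410 upstream site. The causes were not tested.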

How the results depend on the processing

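The number of sites depended most on depth and on the labels. Of 101 values under alternatives, 55 kept their side or size, 45 moved and 1 reversed. In all, in introns, in coding exons and mixed, the 35, 24, 6 and 5 sites became 81, 50, 21 and 10 with at least 2 reads, 19, 14, 3 and 2 with at least 5 reads, 80, 53, 17 and 10 with a 3′ label and any 5′ end, and 366, 148, 181 and 37 with neither label required. With ends within 5 nt merged, 3 were mixed, and within 25 nt, 10 were in coding exons and 8 were mixed. With every site less than 100 nt away from annotated 3′ ends dropped, 15 in introns were left. The 21 sites with reads of the gene itself became 13 with ends within 5 nt merged, 32 within 25 nt, 51 with at least 2 reads, 8 with at least 5, 47 with a 3′ label and any 5′ end, 311 with neither label required, and 3 to 10 from a single replicate. With reads of the gene itself only, an alternative chosen after seeing the data, 21 sites were left, 12 of them in introns. From a single replicate, 11 (without replicate 2) to 21 (without replicate 1) sites were left, 8 to 15 in introns, 2 to 3 in coding exons and 1 to 3 mixed, since the minimum of 3 reads was kept on fewer reads.

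The median share of 27.3% became 42.9% over genes with at least 5 reads and 2.79% with at least 20. It became 15.8% with all 3′-labelled reads and 15.2% with all reads as the denominator, with the numerator unchanged. From a single replicate it was 0.483% in VSP1 alone (replicate 1) and 2.33% over VSP1 and GRP17 (replicate 2). For AATAAA, the difference of intron sites from annotated ends was -3.69 percentage points, neighbours' reads included. With reads of the gene itself only it was -4.88 points. From single replicates, neighbours' reads included, it ran from -6.46 to 0.318 points, reversed without replicate 2. All adjusted p stayed at 0.534 or above. Over all 24 intron sites, neighbours' reads included, adenine downstream was 26.25% and thymine upstream 38.6%. Counting each read once gave 30.4% adenine, and single replicates gave 28.7 to 35% adenine and 36.9 to 39.6% thymine upstream. Over all 6 sites in coding exons, the values were 45.8% adenine and 22.8% thymine, with 42.9% and 22.2% by reads, and 35 to 48.3% and 23.3 to 25% from single replicates. A larger denominator under an unchanged numerator lowers the share by itself. The causes of the other changes in share and of those in composition were not tested. No paired analysis was possible because there is 1 group and no contrast. Depth limits these counts: 11 of 35 sites held 3 reads.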
